A study of Larimichthys crocea with 4 samples.

Results

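Liver RNA of large yellow croakers (Larimichthys crocea) under thermal stress was compared with liver RNA of croakers under cold stress, each after 12 h. The comparison sets 1 RNA-seq library against 1 other, so 2 of the 4 libraries of the series are compared directly. A control library without temperature stress was used only to show whether a gene stood apart in 1 stress library or on opposite sides of control in both. The water temperatures of the stresses, the number of fish behind each stress library, their ages and the hour of sampling are not given in the sources used here, and no genotype or strain is named. Reads had been assembled without a genome into 57216 unigenes (assembled transcript sequences, here also called contigs), of which 40308 had 10 or more fragments in at least 1 of the stress libraries. Fragments (read pairs) of unigenes that share a KEGG orthology number (KO, an identifier for the same gene across species) were summed, and 5222 of 5468 KO passed the same minimum.

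Heat unfolds proteins, and cells respond by making heat shock proteins, chaperones that hold or refold other proteins in the cytosol, mitochondria and nucleus. A separate set of chaperones works in the endoplasmic reticulum (ER), where the liver folds the proteins it secretes into blood, and the unfolded protein response raises or lowers that set with the load of unfolded protein. Fish do not hold a constant body temperature, and their cells adjust membranes to cold by changing fatty acid desaturation and cholesterol content. The liver is the main site of cholesterol synthesis, of gluconeogenesis and of plasma protein production in fish as in mammals.

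Values are fragments in the cold stress, control and thermal stress libraries, in that order, unless stated otherwise. The totals were 17.0 M, 17.5 M and 17.9 M fragments (M, 1000000). Scaled to 1000000 fragments of its library, a value is in counts per M (CPM). The log2 ratio is that of CPM, thermal stress over cold stress, with the 95% exact counting interval in brackets. A gene was called higher or lower when this ratio reached 2-fold and its interval left out 1. With 1 library per condition the ratios have no replicate check, so a call compares the libraries and not the conditions, and the intervals cover counting error only. A library with 3 fragments or fewer was set to 3. The liver label was checked with 7 hepatocyte marker proteins, which held 9.12%, 11.5% and 9.29% of fragments. Digestive enzymes of the exocrine pancreas, which in many fish lies within the liver, held 5.82%, 4.12% and 4.23%. Hemoglobin and other red cell markers had 7732, 12535 and 6307 fragments. Of 4 skeletal muscle markers, parvalbumin and fast myosin had no contig. Troponin had 827, 473 and 967 fragments, and creatine kinase M had 2, 4 and 0. In bulk RNA, fewer cells of a type and less RNA per cell cannot be told apart.

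Of the 5222 KO, 414 (7.93%) were called higher and 1161 (22.2%) lower in the thermal stress library, so that 30.2% were called and 73.7% of the calls were lower. The median log2 ratio over all KO was -0.36, with quartiles of -0.93 and 0.21. The KO at 10 to 30 CPM, 1384 in number, had a median of -0.44, against 0.16 for the 315 KO at 300 CPM or more. At 10 to 30 CPM 5.06% were called higher and 22.5% lower, and at 300 CPM or more 6.67% and 6.67%. The lean to lower calls also depended on the scaling. With edgeR's TMM factors in place of library totals the median moved by 0.38 on the log2 scale to 0.03, and 709 KO were called higher and 666 lower. DESeq2's size factors gave 691 higher and 675 lower. Ratios are therefore read below against the median of -0.36, and the counts of a list under TMM factors stand beside those that they change most. List counts are read against the 7.93% higher and 22.2% lower of all KO, which take no account of the level of a list's members. List counts under TMM factors are read against the 13.6% higher and 12.8% lower of all KO under those factors. Counts of the library with the highest or lowest value rest on library totals, and their share over all KO is not given. Among unigenes, 5786 (14.4%) were called higher and 12113 (30.1%) lower, 44.4% in all.

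**Figure D1:**
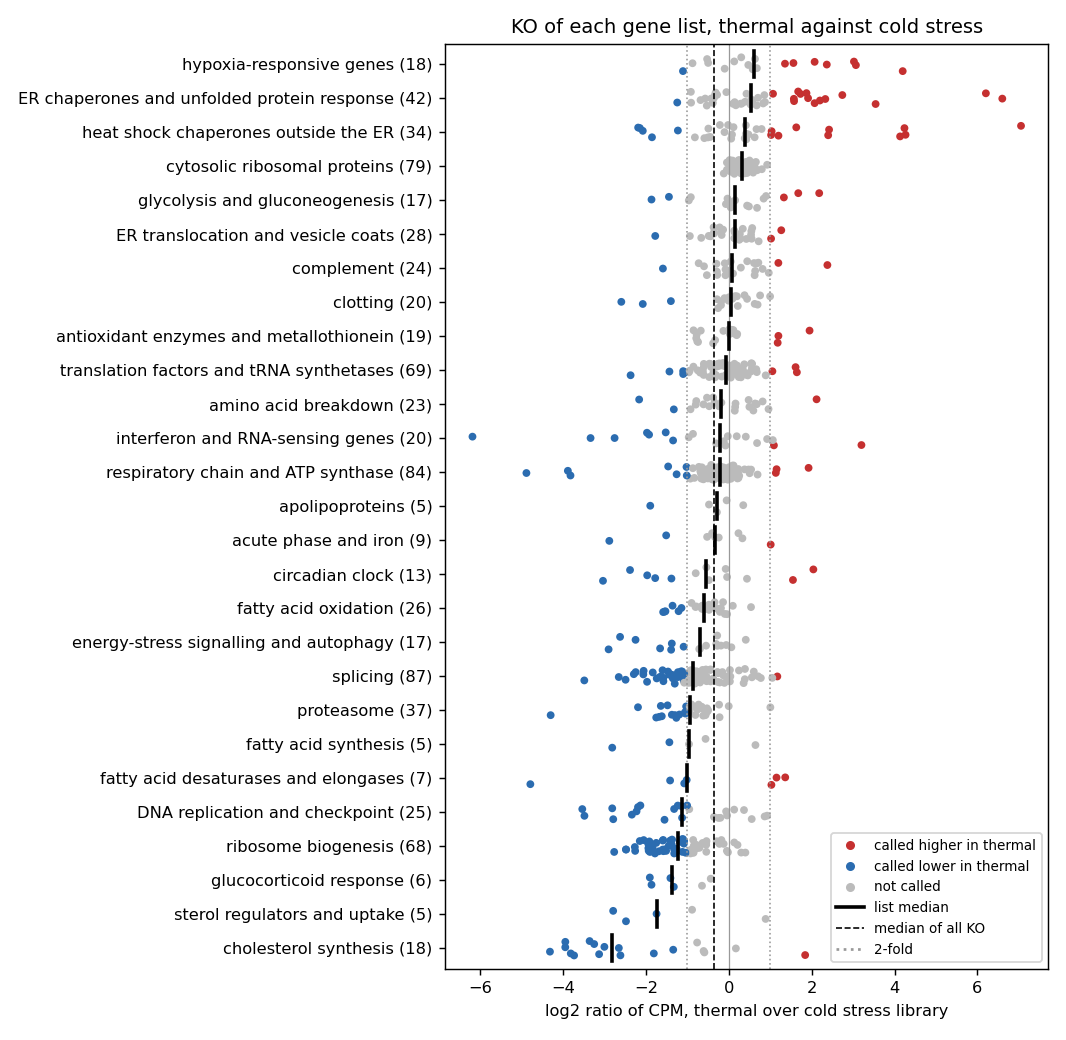
Log2 ratio of CPM, thermal over cold stress library, for every measured KO (1 point each) of 27 gene lists, with the number of KO in brackets. Red and blue points were called higher and lower, black bars are list medians, the dashed line is the median of all KO (-0.36) and the dotted lines mark 2-fold. Chaperone and hypoxia-responsive lists lie to the right and cholesterol synthesis, with a median of -2.83, lies farthest to the left.

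The control library placed the differences. Against control, 358 KO (6.88%) were higher and 561 (10.8%) lower in the thermal stress library, and 909 (17.4%) were higher and 479 (9.16%) lower in the cold stress library. Both sets of ratios share the control library. Over all KO measured, the median log2 ratio to control was 0.21 in the cold stress library and -0.13 in the thermal stress library. Of the 1575 KO called between the stresses, 687 (43.6%) departed from control in the cold stress library alone and 338 (21.5%) in the thermal stress library alone. Another 88 (5.59%) departed from control the same way in both, 417 (26.5%) in neither, and 45 (2.86%) lay on opposite sides of control. A departure here is a call at 2-fold from control, and opposite sides require such a call in both stress libraries. Control can therefore also lie between the stress libraries in the other classes. Cyclophilin B, with 10604, 19661 and 37045 fragments, was classed under neither. Of these 45, 18 were higher under thermal stress and 27 were higher under cold stress.

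The largest rises included chaperones and proteins that process collagen. Heat shock protein HSP27-6, whose contig matched the small heat shock protein Hsp30B, had 15, 0 and 2094 fragments, a log2 ratio of 7.05 (6.33 to 7.89). SERPINH1 (HSP47), the collagen chaperone of the ER, had 104, 424 and 10616, or 97.0-fold more in the thermal than in the cold stress library. BiP (HSPA5), the main HSP70 of the ER, had 723, 19917 and 56077, or 6.20 (6.10 to 6.31). In the cold stress library SERPINH1 and BiP were both below control, and in the thermal stress library both were above it. PLOD1, a lysyl hydroxylase of collagen, had 86, 133 and 1660, with a log2 ratio of 4.20.

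Other large rises included genes of signalling. Estrogen receptor alpha had 17, 28 and 1277 fragments, or 6.16 (5.47 to 6.94), near control under cold stress and far above it under thermal stress. GDF15, a secreted stress cytokine, had 13, 160 and 461, or 5.07 (4.29 to 5.99). The KO labelled ammonium transporter Rh, whose leading contig matched an Rh30-like protein, had 98, 611 and 1691, or 4.03 (3.74 to 4.34). GDF15 and Rh lay on opposite sides of control in the stress libraries. So did RIPK3, a kinase of programmed necrosis, with 124, 326 and 833 fragments and a log2 ratio of 2.67 (2.40 to 2.96). The KO labelled NAD+ synthase, with 2906, 3656 and 61442 fragments and a ratio of 4.33, drew 98.6% of them from 1 contig that matched a hypothetical protein, and 81.9% of that contig's thermal stress reads fitted more than 1 place. The smallest of the 12 largest rises was 4.03, and the next KO outside was SEL1L at 3.54.

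Of 34 measured heat shock chaperones and co-chaperones outside the ER, 10 were higher and 5 lower, with a median log2 ratio of 0.40. These are 29.4% and 14.7%, against 7.93% and 22.2% of all KO. Against control, 15 of 32 were called higher in the thermal stress library and 7 of 34 in the cold stress library, with none called lower in either. Of all KO, 6.88% were called higher than control in the thermal stress and 17.4% in the cold stress library, with 10.8% and 9.16% lower. The cold stress count is thus near the share of all KO. DNAJB1 and DNAJA4, co-chaperones that feed clients to HSP70, had 137, 113 and 2532 fragments and 67, 46 and 1356 fragments, with ratios of 4.13 (3.89 to 4.39) and 4.26 (3.91 to 4.64). HSP27, a small heat shock protein that holds unfolding proteins, had 65, 24 and 1292, or 4.24. DNAJB1 and DNAJA4 were called above control in the thermal stress library alone, and HSP27 in both stress libraries, by a log2 ratio of 1.48 under cold stress and 5.72 under thermal stress. The nucleotide exchange factors BAG2 and BAG3 had 295, 428 and 1662 fragments and 91, 52 and 505 fragments, with ratios of 2.42 and 2.40.

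Smaller rises were seen for general folding machines. CDC37, which brings kinases to HSP90, had 383, 443 and 1247 fragments, or 1.63. GroEL (HSP60), the chaperonin of mitochondria, had 679, 653 and 1641, or 1.20. The epsilon and theta subunits of the cytosolic chaperonin TCP1 had ratios of 1.03 and 1.02. Members of the J-domain and BAG families also went the other way. DNAJA2 had 6660, 2364 and 1942 fragments, or -1.85 (-1.93 to -1.78), and BAG4 had 255, 98 and 59, or -2.19. Both were highest in the cold stress library. Of 3 heat shock factors, the transcription factors that drive heat shock genes, HSF1 was not called, with 60, 46 and 45 fragments, and HSF2 was lower, with 174, 85 and 66.

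**Figure D2:**
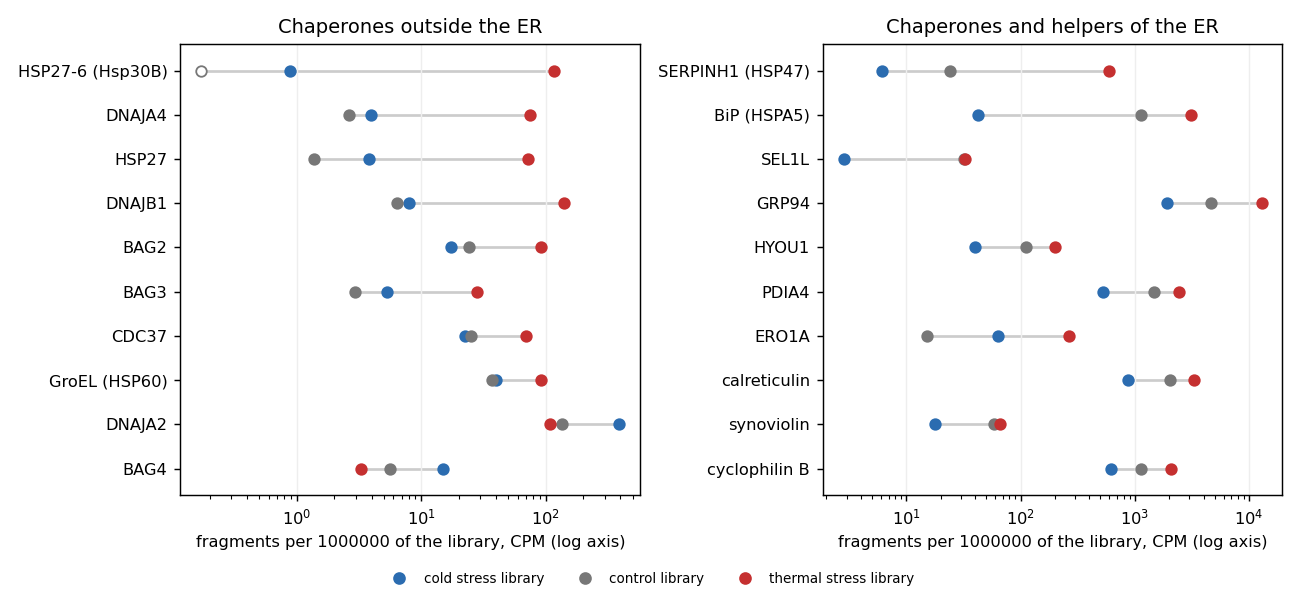
CPM, on a log axis, for named chaperones outside the ER (left) and in the ER (right), in the cold stress (blue), control (grey) and thermal stress (red) libraries, 1 library each. Open circles mark 3 fragments or fewer, drawn at the floor of 3. The thermal stress library is highest for every gene shown except DNAJA2 and BAG4, and for 9 of the 10 ER genes the cold stress library is lowest.

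The KO sums of HSP70 and HSP90 hid the largest differences. The HSP70 sum was 23002, 18655 and 41931 fragments and the HSP90 sum 37737, 35187 and 63192, with ratios of 0.79 and 0.67, neither of them called. Most of each sum came from 1 abundant contig. For HSP70 this was CL1261.Contig4, a match to the constitutive HSC70, with 20663, 17070 and 33255 fragments and a ratio of 0.61 (0.59 to 0.64). For HSP90 it was CL753.Contig3, a match to HSP90 beta, with 37714, 35119 and 59094 and a ratio of 0.57 (0.56 to 0.59). Several of the remaining contigs were low in the cold stress and control libraries and high in the thermal stress library.

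Among the 12 measured contigs of the HSP70 KO, 7 were higher and 1 lower. Unigene22715 and Unigene28836, neither called, matched proteins other than HSP70. The lower contig, Unigene24157, a match to HSPA14, had 2044, 1206 and 995 fragments, or -1.11. Unigene7502 had 52, 10 and 2098 fragments, or 5.26 (4.86 to 5.69). Unigene16909, a match to HSC70-2, had 18, 38 and 1415, or 6.22. CL877.Contig1, a match to an uncharacterized protein, had 14, 6 and 926, or 5.97. None of the reads on these last 3 contigs fitted a further place. The 6 lesser HSP90 contigs together had 23, 53 and 4098 fragments, or 7.40 (6.82 to 8.06), which is 169-fold. Unigene5713, a match to HSP90 alpha, the heat-inducible form, had 9, 14 and 1351. In CL1135.Contig1 and CL753.Contig5, 42.5% and 47.8% of thermal stress reads fitted more than 1 place, so the split between these contigs is uncertain.

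**Figure D3:**
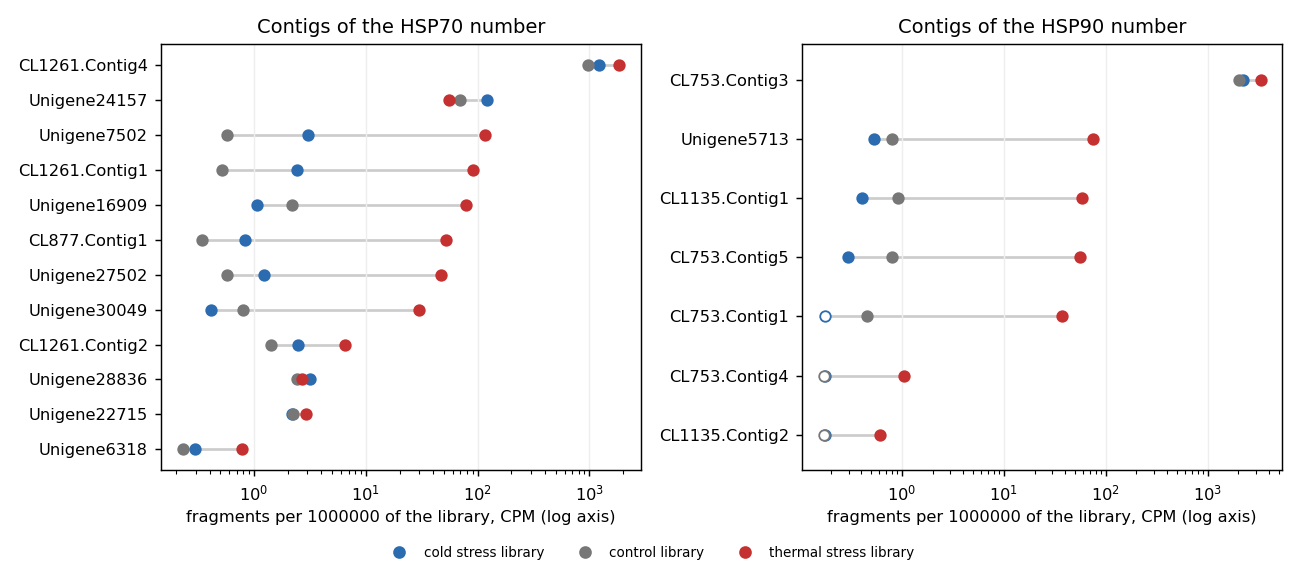
CPM, on a log axis, for each measured contig of the HSP70 KO (left) and the HSP90 KO (right), in the cold stress (blue), control (grey) and thermal stress (red) libraries. Open circles mark 3 fragments or fewer, drawn at the floor of 3. The most abundant contig of each KO differs by a log2 ratio of about 0.61 and 0.57, whereas Unigene7502 differs by 5.26 and Unigene5713 by 7.16.

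Of 42 KO of ER chaperones and the unfolded protein response, 14 (33.3%) were higher and 1 (2.38%) lower, with a median of 0.53. Of all KO, 7.93% were higher and 22.2% lower. TMM factors gave 19 higher and none lower. In the thermal stress library 6 were called above control and 1 below, and in the cold stress library 3 were called above and 12 below. For all KO these shares were 6.88% and 10.8% under thermal stress, and 17.4% and 9.16% under cold stress. By library totals the thermal stress value was the highest of the 3 libraries for 23 of the 42, and the cold stress value the lowest for 24. The shares of these counts over all KO are not given. GRP94, the HSP90 of the ER, had 32812, 81053 and 230733 fragments, or 2.74 (2.72 to 2.76), on opposite sides of control. PDIA4, a disulfide isomerase, had 8958, 25919 and 43310, or 2.20 (2.17 to 2.23). Calreticulin, a lectin chaperone of glycoproteins, had 14938, 35619 and 59233, or 1.91 (1.89 to 1.94).

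The ER genes differed in which library departed from control. SEL1L and synoviolin, the core of the complex that sends misfolded ER proteins to the proteasome, had 48, 555 and 589 fragments and 304, 1018 and 1174 fragments, with thermal stress close to control and cold stress low. ERO1A, an oxidase that drives disulfide formation, had 1081, 265 and 4784, or 2.07, and was above control in both stress libraries. HYOU1, a large ER chaperone, had 681, 1954 and 3603, or 2.33. The regulators of the response were not called. XBP1 had 5103, 4065 and 6048 fragments, or 0.17, ATF6 had 420, 540 and 581, or 0.39, and ATF4 had 4815, 3146 and 4172, or -0.28. DNAJB12, a J-domain protein of the ER membrane, was the lower member, with 1668, 469 and 742 fragments and a ratio of -1.24.

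Cholesterol synthesis was the list with the lowest median, -2.83. In the thermal stress library 13 of 18 KO (72.2%) were lower and 1 (5.56%) higher, against 22.2% and 7.93% of all KO. All 18 were called below control in the thermal stress library, and 16 of the 18 in the cold stress library. Of all KO, 10.8% and 9.16% were. The thermal stress value was the lowest of the 3 libraries for 16. HMG-CoA synthase, which starts the pathway, had 3725, 8202 and 255 fragments, or -3.94 (-4.13 to -3.76). HMG-CoA reductase, its rate-limiting enzyme, had 1058, 2447 and 182, or -2.61 (-2.85 to -2.39). For both, control was highest, cold stress lay between and thermal stress was lowest.

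Several steps after squalene also showed wide gaps, though methylsterol monooxygenase was at -1.34 and lost its call under TMM factors, at -0.96. Squalene monooxygenase had 491, 2298 and 26 fragments, or -4.31 (-4.94 to -3.74). Lanosterol synthase, which closes the sterol rings, had 280, 1425 and 21, or -3.81 (-4.53 to -3.17). Lathosterol oxidase had 3611, 8453 and 247, or -3.94, and cholestenol delta-isomerase 2321, 6870 and 184, or -3.73. CYP51, delta14-sterol reductase and delta24-sterol reductase had ratios of -3.36, -3.25 and -3.13, and 7-dehydrocholesterol reductase, the last step, had 1125, 1847 and 148 fragments. In the middle of the pathway both stress libraries were low beside control. Farnesyl diphosphate synthase had 157, 5734 and 110 fragments, or -0.59, and squalene synthase 79, 1103 and 49, or -0.76, neither called. Mevalonate kinase, with 9, 123 and 34 fragments, was the member called higher, at 1.84 (0.75 to 3.09).

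**Figure D4:**
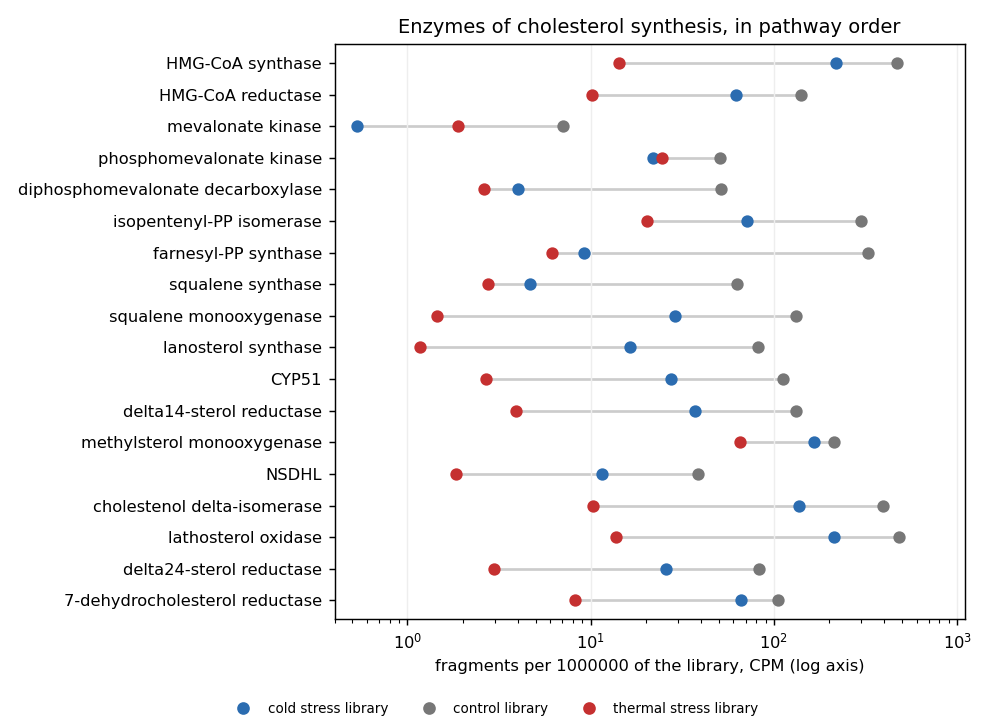
CPM, on a log axis, for the 18 enzymes of cholesterol synthesis in pathway order, in the cold stress (blue), control (grey) and thermal stress (red) libraries. Control is highest for all 18, and thermal stress is lowest for 16.

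Of 5 regulators of sterol supply, 3 (60%) were lower and none was higher in the thermal stress library. Of all KO, 22.2% were lower and 7.93% higher. SREBF2, the transcription factor that drives cholesterol synthesis genes, had 1139, 780 and 215 fragments, or -2.48 (-2.70 to -2.27). The LDL receptor, which takes up lipoprotein cholesterol, had 5434, 2072 and 1711, or -1.74. NPC1L1, a sterol importer, had 932, 408 and 142, or -2.79. For these 3 KO the cold stress value exceeded the control value, whereas for the enzymes control was highest. SREBF1, which drives fatty acid synthesis, had 342, 420 and 195 and was not called, at -0.88. The KO labelled NPC1, whose leading contig matched nucleobindin-2, went the other way, with 7837, 14090 and 15282 fragments and a ratio of 0.89, and was called higher under TMM factors, at 1.27.

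Genes of fatty acid modification split. ELOVL5, which elongates polyunsaturated fatty acids, had 367, 42 and 14 fragments, or -4.79 (-5.67 to -4.02), above control in the cold stress and below it in the thermal stress library. Stearoyl-CoA desaturase, which makes monounsaturated fatty acids, had 9127, 2266 and 4754, or -1.02, and lost its call under TMM factors, at -0.63. It was above control in both stress libraries. Its lesser contig Unigene25726, a match to SCD1b, had 580, 448 and 71 fragments, or -3.10. ELOVL6 had 466, 874 and 184, or -1.41, and FADS6 had 50, 35 and 117, or 1.15. The KO labelled FADS2, at 1.36, rested on a contig that matched a cytochrome b5-like protein and gives no value for the desaturase. Of the other 6 KO of this list, 2 were higher and 4 lower, of which SCD and the sparse ELOVL1 lost their calls under TMM factors. Of all KO, 7.93% were higher and 22.2% lower.

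Fatty acid oxidation held 6 lower and no higher KO of 26. These are 23.1% of the list, near the 22.2% of all KO called lower. The median was -0.60, and TMM factors gave 3 lower with a median of -0.22. CPT1, which admits fatty acids to mitochondria, had 817, 324 and 390 fragments, or -1.14. PPARA, the nuclear receptor that drives oxidation genes, had 603, 250 and 217, or -1.55. HADHB, of the mitochondrial trifunctional protein, had 2270, 1586 and 829, or -1.53. Of 5 KO of fatty acid synthesis, 2 (40%) were lower and none higher, against 22.2% and 7.93% of all KO. ATP-citrate lyase, which supplies acetyl-CoA for lipid synthesis, was lower, with 2048, 2427 and 799 fragments and a ratio of -1.43. Acetyl-CoA carboxylase went the other way, at 0.64 and not called, and was called higher under TMM factors, at 1.03. Of the contigs that matched fatty acid synthase, Unigene9796 had 301, 801 and 51, or -2.64. CL2579.Contig3 and CL2579.Contig1, with fewer fragments, had ratios of -2.21 and -2.28. The KO with that label drew mostly on contigs that matched tensin. Among apolipoproteins, 1 of 5 (20%) was lower, near the 22.2% of all KO. Apolipoprotein A-IV had 63420, 79319 and 17968 fragments, or -1.89 (-1.92 to -1.87), while apolipoprotein A-I, E and B had ratios of -0.48, -0.05 and -0.29.

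The largest fall over all KO was that of Mx1, an interferon-induced GTPase that blocks viruses, with 1449, 173 and 21 fragments, or -6.18 (-6.88 to -5.56). It was above control under cold stress and below it under thermal stress, and all 5 of its measured contigs were lower. Of 20 interferon and RNA-sensing KO, chosen after their values were seen, 7 (35%) were lower and 2 (10%) higher, with a median of -0.21. Over all KO, 22.2% were lower and 7.93% higher. TMM factors gave 6 lower and 4 higher, with a median of 0.17. DHX58, a regulator of the RNA sensors, had 378, 189 and 59 fragments, or -2.75. IRF3, a transcription factor of interferon genes, had 179, 131 and 48, or -1.97, whereas IRF7, of the same family, had 25, 195 and 242, or 3.20 (2.60 to 3.86). IRF7 was low in the cold stress library and near control in the thermal stress library. A contig that matched ISG15, a ubiquitin-like modifier induced by interferon, had 1009, 265 and 111 fragments, or -3.26. A sparser ISG15 contig, CL1284.Contig2, had 63, 48 and 49, or -0.44, and was not called.

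Further large falls were in chromatin and nuclear proteins. HMGB1, a chromatin protein that also acts as a danger signal outside cells, had 5962, 1734 and 346 fragments, or -4.18 (-4.34 to -4.02), on opposite sides of control. The whole difference lay in contig Unigene23138, with 5678, 1469 and 74, while its other 2 contigs together had 284, 265 and 272. HMGB2 had 5176, 1892 and 815, or -2.74. The checkpoint kinase Chk1 had 154, 28 and 14, or -3.53 (-4.44 to -2.74). NRF1, a transcription factor of mitochondrial genes, had 150, 37 and 11, or -3.84, and the splicing factor SRSF7 had 319, 97 and 30, or -3.48. Both lay on opposite sides of control. Cytochrome b561, a membrane electron carrier, had 486, 45 and 32, high in the cold stress library alone. The KO labelled as a proteasome T1 subunit, at -4.30, matched the motor protein prestin. The smallest of the 12 largest falls was -3.53, and phosphoserine aminotransferase was next, at -3.49.

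Genes for splicing were called lower more often than all KO. Of 87 splicing KO, 31 (35.6%) were lower and 1 (1.15%) higher in the thermal stress library, with a median of -0.85. Of all KO, 22.2% were lower and 7.93% higher. TMM factors gave 17 lower and 4 higher with a median of -0.47, where 12.8% of all KO were lower and 13.6% higher. Against control, 18 of the 87 were called higher in the cold stress library, where 17.4% of all KO were. By library totals the cold stress value was the highest of the 3 libraries for 70, a count whose share over all KO is not given. SMNDC1 (SPF30), which helps assemble spliceosomes, had 2758, 843 and 517 fragments, or -2.49. SNU13, a protein of the tri-snRNP, had 532, 214 and 89, or -2.65, and SRSF3 553, 310 and 119, or -2.29. U2AF35, which reads the end of the intron, was the higher member, with 683, 478 and 1620 and a ratio of 1.17. Cold-inducible RNA-binding protein had 1208, 729 and 259, or -2.30 (-2.50 to -2.10). Against control its thermal stress value was called lower, at -1.53, and its cold stress value was above control by 0.77 and not called.

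Ribosome biogenesis, a list chosen after values were seen, had 41 lower (60.3%) and no higher KO of 68, with a median of -1.22. Of all KO, 22.2% were lower and 7.93% higher. TMM factors gave 27 lower and a median of -0.83, where 12.8% of all KO were lower. Fibrillarin, which methylates ribosomal RNA, had 2170, 1095 and 409 fragments, or -2.48. UTP5, of the U3 processome, had 3045, 920 and 472, or -2.76, and EBP2 2113, 585 and 465, or -2.26. The proteins of the mature cytosolic ribosome did not move with these assembly factors. None of the 79 was called and their median was 0.33. Among all KO at 300 CPM or more, 6.67% were called higher and 6.67% lower. By library totals the thermal stress library was the highest of the 3 for 74, a count whose share over all KO is not given. Under TMM factors 6 of them were called higher, with a median of 0.71. Ribosomal protein L5 had 43830, 48473 and 56653 fragments, a ratio of 0.30.

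Of 25 measured DNA replication and checkpoint KO, also listed after values were seen, 14 (56%) were lower and none higher, with a median of -1.13. Of all KO, 22.2% were lower and 7.93% higher. TMM factors gave 9 lower and 2 higher. The clamp loader subunit RFC3/5 had 841, 303 and 202 fragments, or -2.13, and RPA1, which coats single-stranded DNA, had 445, 193 and 160, or -1.55. Of 37 proteasome KO, 15 (40.5%) were lower and none higher, against 22.2% and 7.93% of all KO. Their median was -0.94, and TMM factors gave 7 lower and 1 higher. Without 4 KO whose contigs matched other proteins, 13 of 33 were lower, the lowest at -1.75. This was the regulatory subunit N1, with 1674, 813 and 524 fragments. PSMB6 lost its call under TMM factors, at -0.88.

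Of 17 KO of glycolysis and gluconeogenesis, 3 (17.6%) were higher and 2 (11.8%) lower, against 7.93% and 22.2% of all KO. Their median was 0.15, and TMM factors gave 6 higher and 2 lower. Phosphofructokinase, the committing step of glycolysis, had 305, 298 and 1457 fragments, or 2.18 on the log2 scale. Triosephosphate isomerase had 4245, 2889 and 14288, or 1.68, and glucose-6-phosphate isomerase 1668, 1996 and 4415, or 1.33. Both isomerases serve glycolysis and gluconeogenesis alike. The members called lower were enzymes of gluconeogenesis. PEPCK, its rate-limiting enzyme, had 21954, 9520 and 6351, or -1.86 (-1.90 to -1.82), and pyruvate carboxylase 935, 692 and 362, or -1.44. Aldolase, with 52164, 13695 and 102405, and glucose-6-phosphatase, with 11767, 3813 and 6569, had ratios of 0.90 and -0.92 and were not called.

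Genes known in mammals to respond to low oxygen, listed after values were seen, were higher for 7 of 18 KO (38.9%) and lower for 1 (5.56%). Of all KO, 7.93% were higher and 22.2% lower. The median of the list was 0.61. EPO, the hormone of red cell formation, had 24, 7 and 205 fragments, or 3.02 (2.41 to 3.70). The glucose transporters GLUT3 and GLUT1 had 17, 22 and 150 fragments and 296, 365 and 919 fragments, or 3.07 (2.34 to 3.88) and 1.56. Prolyl 4-hydroxylase, whose leading contig matched the collagen-modifying alpha-2 subunit, had 203, 286 and 1101, or 2.37. DDIT4, an inhibitor of mTOR signalling, was high in both stress libraries, with 11882, 369 and 20013, or 0.68. HIF1A itself had 1275, 923 and 1654, or 0.30. PDK, which blocks pyruvate entry to the mitochondrion, was the lower member, with 5243, 1127 and 2567 and a ratio of -1.10, and lost its call under TMM factors, at -0.72.

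Genes that respond to glucocorticoids, the stress steroids, were lower for 4 of 6 KO (66.7%), against 22.2% of all KO, with a median of -1.37. Against control, 3 were higher in the thermal stress and 5 in the cold stress library, where 6.88% and 17.4% of all KO were higher. Tyrosine aminotransferase had 104150, 15296 and 43755 fragments, or -1.33 (-1.34 to -1.31), and -0.94 under TMM factors. The KO of IGF-binding proteins, mostly contigs that matched IGFBP1, had 44943, 5317 and 12642, or -1.90. SGK1, a kinase of ion transport, had 3580, 716 and 1421, or -1.41 by the same ratio. The glucocorticoid receptor had 190, 304 and 148, or -0.43, and was not called. In amino acid breakdown, 1 of 23 KO (4.35%) was higher and 2 (8.7%) lower, against 7.93% and 22.2% of all KO. The median was -0.18, and TMM factors turned this to 5 higher and 1 lower, with a median of 0.20. Tryptophan 2,3-dioxygenase, which opens the kynurenine pathway, had 5351, 2036 and 1259, or -2.16, and kynureninase, a later enzyme of it, had 91, 148 and 416, or 2.12.

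Of 13 clock KO, 2 (15.4%) were higher and 5 (38.5%) lower, against 7.93% and 22.2% of all KO. Rev-erb alpha, a repressor in the clock, had 249, 39 and 32 fragments, or -3.03 (-3.61 to -2.50). Cryptochrome had 2896, 393 and 585, or -2.38, and ARNTL (BMAL1), the activator of the clock, 156, 49 and 42, or -1.97. Period had 436, 254 and 176, or -1.38, and BHLHE40, which represses clock genes, had 299, 216 and 921, or 1.55. The hour of sampling, to which clock genes respond, is not given in the sources used here.

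Of 17 energy-stress and autophagy KO, chosen after values were seen, 7 (41.2%) were lower and none higher, against 22.2% and 7.93% of all KO. Their median was -0.70, and TMM factors gave 5 lower with a median of -0.31. By library totals the cold stress value was the highest of the 3 libraries for 15, a count whose share over all KO is not given. ULK, the kinase that starts autophagy, had 3698, 285 and 522 fragments, or -2.90. FOXO1, which drives fasting genes, had 2345, 218 and 401, or -2.62, and the catalytic subunit of AMPK had 1607, 229 and 356, or -2.25. All 3 were called above control in the cold stress library alone. The thyroid hormone deiodinases went in opposite directions. Type 2, which activates the hormone, had 88, 1133 and 1797 fragments, or 4.28. Type 3, which inactivates it, had 4885, 119 and 879, or -2.55 (-2.65 to -2.44).

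**Figure D5:**
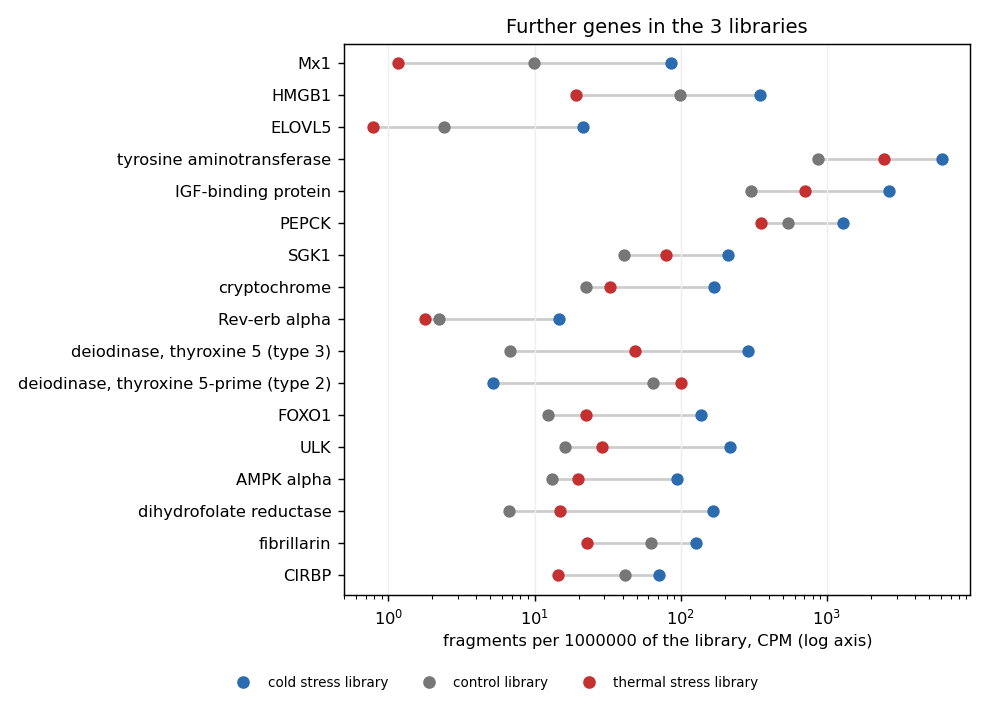
CPM, on a log axis, for further genes described in the text, in the cold stress (blue), control (grey) and thermal stress (red) libraries. The cold stress library is highest for every gene shown except type 2 deiodinase. Mx1, HMGB1, ELOVL5 and fibrillarin were called on opposite sides of control, and for some other genes control also lies between the stress libraries.

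Of the egg proteins, those of the egg envelope, but not vitellogenin, were far higher in the thermal stress library, as was estrogen receptor alpha. The fish liver makes vitellogenin and, in many species, egg envelope proteins under estrogen. Together the egg protein markers had 644, 1097 and 4851 fragments, or 2.84. Zona pellucida contigs had 260, 777 and 4408, or 4.01, whereas vitellogenin had 384, 320 and 443, or 0.13. The sex of the fish is not given in the sources used here. Hormones of the pancreatic islet, looked up after values were seen, were near 0 in control and present in both stress libraries. Glucagon had 940, 3 and 5596 fragments, or 2.50 (2.40 to 2.60), somatostatin 163, 1 and 390, or 1.18, and insulin 595, 4 and 511, or -0.29. Their part in the other results was not tested. With pancreatic enzyme, egg protein and hemoglobin contigs left out of the library totals, 398 KO were called higher and 1196 lower. This only rescaled the libraries, with a median shift of -0.02, so it cannot show what other tissue adds to a gene.

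The liver also makes the complement and clotting proteins of plasma. Of 24 complement KO, 2 (8.33%) were higher and 1 (4.17%) lower, with a median of 0.08. Of 20 clotting KO none was higher and 3 (15%) were lower, with a median of 0.05. Over all KO, 7.93% were higher and 22.2% lower. Among all KO at 300 CPM or more the shares were 6.67% and 6.67%, and the lists were not matched for level. The complement and clotting counts depended on the scaling, since TMM factors gave 8 higher and 1 lower in complement and 4 higher and 2 lower in clotting. Under TMM factors 13.6% of all KO were higher and 12.8% lower. Complement C7 had 76419, 67744 and 141663 fragments, or 0.82, and C3 132818, 204285 and 114685, or -0.29, neither called. The KO labelled MASP1, 1 of the 2 complement KO called higher, had a contig that matched haptoglobin, the hemoglobin scavenger, and not a complement protein. This KO had 22441, 47359 and 54150 fragments, or 1.20. Transferrin, the iron carrier, had 732239, 1029474 and 968735, or 0.33. Angiotensinogen, the precursor of the angiotensin hormones, had 364673, 133098 and 134811, or -1.51, high in the cold stress library alone. Alpha-1-antitrypsin had 15254, 23194 and 32392, or 1.01. A KO labelled MMP14 rested on Unigene7981, a match to warm temperature acclimation protein WAP65-2, a hemopexin-like plasma protein of fish. That contig had 19225, 40755 and 69158 fragments, or 1.77.

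Respiratory chain and ATP synthase subunits were little separated, with 3 of 84 higher and 7 lower and a median of -0.22, which became 0.16 under TMM factors. The counts are 3.57% and 8.33%, against 7.93% and 22.2% of all KO. Among all KO at 300 CPM or more the shares were 6.67% and 6.67%, and the list was not matched for level. With TMM factors 4 were higher and 4 lower. Without 10 contigs whose best match was a human protein, which had 626, 1 and 2 fragments together, 3 of 81 were higher and 4 lower. Cytochrome c oxidase subunit 6b had 6080, 2508 and 14059 fragments, or 1.14, and NADH dehydrogenase chain 5, encoded in the mitochondrion, had 8320, 10470 and 3180, or -1.46. Of 19 antioxidant KO, 3 (15.8%) were higher and none lower, against 7.93% and 22.2% of all KO. The KO peroxiredoxin 1, whose contig matched peroxiredoxin 2, had 2366, 1622 and 9619, or 1.95 (1.88 to 2.01). Metallothionein, which binds zinc and copper, had 28059, 36871 and 67759, or 1.20, and GCLC, the limiting enzyme of glutathione synthesis, 70, 85 and 167, or 1.18.

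Contigs of 1 KO did not always move together. Of 3415 KO with at least 2 measured contigs, 573 held contigs called in opposite directions, and 1668 KO that were not called held a contig that was. Unigenes with a protein match but no KO added to both ends. Unigene5910, a match to the co-chaperone SGT beta, had 16, 8 and 619 fragments, or 5.20, and Unigene17972, a match to a chorion protein, 15, 107 and 559, or 5.15. Unigene19612, a match to the sterol scaffold ERG28, had 380, 1319 and 21, or -4.25, the order seen for the sterol enzymes. CL856.Contig1, a tuftelin-like match, had 905, 45 and 40, or -4.57, and CL346.Contig1, a match to a protein induced by megalocytivirus, had 182, 49 and 14, or -3.77.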

How the data were processed

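Liver mRNA of large yellow croakers was sequenced on the Illumina platform in 1 library per condition. The paper names Trinity in its methods and SOAPdenovo in its results for the assembly of unigenes. The aligner and counting program are not given in the sources used here, and the paper does not describe the temperature stress experiments. The authors deposited raw fragment counts per unigene, without normalization, and FPKM values, which scale those counts by the length of the unigene and the total of the library. The deposited comparison tables of the authors hold log2 ratios, p-values and false discovery rates, which were not used.

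Fragments were summed by the deposited KEGG orthology numbers, which 22677 unigenes carry, and 6 unigenes with a malformed number were left out of the sums. Numbers were read with the best protein match of their leading contig, because some labels and matches disagree. Ratios used library totals, a minimum of 10 fragments in 1 stress library and 95% Clopper-Pearson intervals of the conditional binomial share. Libraries with at most 3 fragments were set to 3, which makes the fold a lower limit. At depths of 17.0 M to 17.9 M fragments (M, 1000000), the floor of 3 fragments is 0.176 CPM in the cold stress library and 0.167 CPM in the thermal stress library. No columns of other series were left unused (0).

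The genes and lists were chosen with earlier results of these data known. Named were the 12 KO that rose most and the 12 that fell most among called KO with 10 fragments in each stress library and 100 in 1, the 5 in each direction that lay farthest on opposite sides of control, from 23 lists the 3 most abundant members and the 3 with the largest ratios, and the 5 unigenes without a KO in each direction. A further 8 lists, and genes named outside this rule, were chosen after values were seen. No sequence was read, since no genome or transcript sequence was used here. The calling script was tested on simulated data. Alternatives used TMM factors of edgeR 4.0.16, size factors of DESeq2 1.42.0 and edgeR's exact test, in which the biological coefficient of variation was taken as 0.4, in R 4.3.3. Other computation used Python 3.11.15, pandas 2.3.3, SciPy 1.17.1 and matplotlib 3.10.9.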

Additional observations from a re-analysis of the deposited data

How the results depend on the processing

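No paired analysis was possible because there is 1 library per condition, and no library could be left out. Under a 4-fold threshold 390 KO, 7740 unigenes, 54 of the 563 listed KO and 1 KO on opposite sides of control were called, against 1575, 17899, 152 and 45 as reported. With edgeR's exact test at an assumed coefficient of variation of 0.4 these counts were 526, 7759, 69 and 4. A minimum of 100 fragments left 3950 unigenes called and 23 KO on opposite sides of control, because fewer features were tested. Taking only the leading contig of each KO put 74 KO on opposite sides of control, and the cause was not tested. These totals otherwise stayed within 1.5 times the reported ones under TMM factors, DESeq2 size factors, totals without pancreatic, egg and hemoglobin contigs, a minimum of 1 fragment, reads that fit 1 place only, sums over contig clusters and, chosen after seeing the data, removal of contigs with a human match, wherever the alternative applies. The calls behind the totals changed more. TMM factors kept 1080 of the 1575 KO calls. The listed KO went from 44 higher and 108 lower to 82 higher and 72 lower. Of the 157 named KO, 97 were called, and none of these 97 reversed direction. Under TMM and DESeq2 factors none could, since these moved all ratios by 0.38 and 0.37, short of 2-fold. The 4-fold threshold and the exact test left the ratios unchanged. The sign of uncalled KO was not tracked, and it can change near 0. Apolipoprotein B, the median of its list, went from -0.29 to 0.10 under TMM factors. Among the 157, TMM factors ended 7 calls and added 16, and the exact test ended 30. With 1-place reads alpha-1-antitrypsin fell short of 2-fold, at 0.70. Depth limits the genes near the floor of 3 fragments, where 45 of the higher and 56 of the lower KO lie.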

Other observations

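The genes in this paragraph and the next are KO outside the lists, picked for their abundance and ratio after their values were seen. Of 333 called KO with 1000 fragments or more in a stress library, 85 were higher and 248 lower in the thermal stress library, a lean like that of all called KO (73.7% lower, and 48.4% under TMM factors). Purine-nucleoside phosphorylase, which splits purine nucleosides for salvage, had 33017, 3614 and 7308 fragments in the cold stress, control and thermal stress libraries, a log2 ratio of thermal over cold stress of -2.25 (-2.29 to -2.21). Uridine phosphorylase, which does the same for uridine, had 27965, 10316 and 5572, or -2.40. Dihydrofolate reductase, which regenerates the folate used in nucleotide synthesis, had 2823, 117 and 266, or -3.48 (-3.67 to -3.30). All 3 were called above control under cold stress, and under thermal stress dihydrofolate reductase alone was called above control. The monocarboxylate transporter with a match to MCT1, which carries lactate and ketone bodies, had 35588, 9371 and 5029, or -2.90 (-2.94 to -2.85). The methyltransferase PRMT1 had 6463, 1769 and 856, or -2.99, and the adiponectin receptor 8118, 1671 and 1543, or -2.47. KLF9, a transcription factor known in vertebrates as a target of glucocorticoid and thyroid hormone, had 7650, 626 and 1864, or -2.11.

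On the other side, c-Fos, an immediate early transcription factor, had 453, 690 and 2049 fragments, or 2.10 (1.96 to 2.25). Coproporphyrinogen oxidase, of heme synthesis, had 484, 560 and 2270, or 2.16 (2.01 to 2.30). Aquaporin-7, a channel for water and glycerol, had 264, 1154 and 1118, or 2.01, close to control under thermal stress and low under cold stress. The metalloreductase labelled STEAP2, whose contig matched STEAP4, had 4132, 30707 and 16584, or 1.93, with its highest value in control.

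Unigenes with 10 or more fragments in 1 library and at most 1 in each of the other 2 numbered 668 in the cold stress, 450 in the control and 310 in the thermal stress library, or 0.0819%, 0.0547% and 0.0323% of fragments. Of these, 27 in the cold stress library had a human protein as best match, with 1090 fragments together, and none did in the control or thermal stress library.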
